A study of Mus musculus with 9 samples.

Results

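Ion channels of the potassium, voltage-gated calcium, voltage-gated sodium, CLC chloride and anoctamin families were followed by RNA sequencing in cultured mouse knee chondrocytes. The genes were taken by name: every protein-coding row of the gene count table whose symbol began with Kcn and further letters and a digit, or was that of a voltage-gated calcium channel subunit (Cacna1, Cacna2d, Cacnb, Cacng), a sodium channel subunit (Scn), a CLC protein (Clcn) or an anoctamin (Ano). This gave 152 of 56748 rows, made up of 40 voltage-gated potassium pore subunits, 8 calcium- or sodium-activated potassium pore subunits, 15 inward rectifiers, 14 tandem-pore-domain potassium channels, 16 potassium channel accessory subunits, 10 calcium pore subunits, 16 calcium accessory subunits, 10 sodium α subunits, 4 sodium β subunits, 9 CLC proteins and 10 anoctamins. The cells came from wild-type mice and were released from knee cartilage with collagenase D and grown in serum-containing medium. The 3 groups of 3 libraries were control cells, cells given interleukin-1β (IL-1β), and cells given IL-1β with recombinant secreted frizzled-related protein 5 (SFRP5), which binds Wnt proteins outside cells. No dose, time, age or sex was given in the labels, and no group received SFRP5 without IL-1β. Whether the libraries of a group came from separate animals or cultures is not in the labels, and p-values therefore measure a spread between libraries that may be technical.

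Channel genes encode the pores and partners through which ions cross cell membranes. Potassium channels set the resting membrane potential and bring the membrane back after a depolarization, and voltage-gated calcium and sodium channels open when it depolarizes. CLC proteins carry chloride, either through the plasma membrane or in exchange for protons in endosomes and lysosomes. Anoctamins are calcium-activated chloride channels or lipid scramblases. Chondrocytes are not classically excitable cells, but their membrane potential, volume and calcium signals respond to load and osmolarity, and channels of several of these families have been recorded in them.

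The total count per library was 15795985 to 20688963, so that 3 counts in a library equalled 0.135 to 0.195 CPM. CPM are counts relative to library sizes scaled by the trimmed mean of M values (TMM). Of the 152 channel genes, 25 had no count in any library, 56 had counts but too few for the test, and 71 were tested. Of these 71, 42 passed the filter on low counts in all 3 groups and 17 through the libraries of 1 group alone. A gene of the last kind was tested because 1 group was high enough, which favours a difference, so shares of the tested genes do not stand for all 152. Chondrocyte markers (8 of 8 tested) summed to 107000 to 110000 CPM in control, 22000 to 23200 CPM in IL-1β and 27700 to 29100 CPM in SFRP5 libraries. Neuron markers (5 of 8 tested) summed to 8.07 to 8.8, 11.1 to 13.3 and 7.49 to 11.1 CPM in the same order, with Rbfox3 at 0 in every library, and skeletal muscle markers (5 of 7) to 5.23 to 7.63, 2.25 to 2.85 and 3.84 to 4.88 CPM. Synovial fibroblast markers (5 of 6) summed to 193 to 198, 886 to 946 and 1130 to 1160 CPM, and osteoblast markers (4 of 6) to 64.2 to 71.1, 2.43 to 4.12 and 3.13 to 4.93 CPM. Macrophage, osteoclast and smooth muscle markers lay at 11.7 to 12.3, 105 to 108 and 9.85 to 11.8 CPM in control libraries, and at 17.7 to 18, 146 to 166 and 13.7 to 14.7 CPM with IL-1β. With SFRP5 added they lay at 14.2 to 17.2, 117 to 133 and 15.9 to 19.7 CPM. Glial, adipocyte and endothelial markers lay at 8.04 to 9.14, 14.9 to 16.8 and 0.768 to 1.11 CPM in control libraries, and at 3.63 to 3.95, 6.38 to 7.29 and 3.75 to 4.68 CPM with IL-1β. With SFRP5 added they lay at 3.84 to 5.25, 4.19 to 4.73 and 2.54 to 3.64 CPM, and Emcn, an endothelial marker, was at 0 throughout. These sums hide members that went both ways with IL-1β. Of the neuron markers tested, Tubb3 and Nefl were called higher and Syt1 and Prph lower. Of the synovial fibroblast markers, Pdpn, Prg4 and Cd34 were called higher, and Thy1 and Pdgfra lower by 4.87-fold and 2.6-fold (adjusted p = 7.37e-14 and 4.81e-17). Of the smooth muscle markers, Notch3 was called 3.41-fold higher and Cnn1 24.7-fold lower (adjusted p = 3.02e-12 and 1.34e-10), with Actg2 lower as well. The part of these shifts in the channel results was not tested, and in bulk RNA fewer cells of a type and less RNA per cell cannot be told apart.

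Levels per transcript length were compared between genes as TPM, which were computed from the counts and the gene lengths in the table and rank genes within a group only. Among the channel genes of high level in control cells were Cacng7, a calcium channel γ subunit, at 54.4 ± 4.01 (mean ± SD, n = 3) TPM, Kcna6, a Shaker-type potassium pore subunit, at 52.6 ± 1.09 TPM, Clcn7, the lysosomal chloride-proton exchanger, at 47.2 ± 3.13 TPM, and Ano10 at 40.4 ± 0.536 TPM. The SDs of Cacng7 and Kcna6 overlap, so their order is not settled. Clcn4, Kcnk2, Clcn5, Kcnk1, Kcnq5, Clcn3 and Cacna2d1 lay below them at 37.1 to 17.8 TPM. With IL-1β, Clcn5 and Cacna1h were at 73.4 ± 4.37 and 71 ± 2.06 TPM, which do not differ beyond their spread. Kcnq5 (46.7 ± 2.13 TPM) and Cacng7 (46.1 ± 1.72 TPM) lay below them. Kcna6 was no longer among the first 12.

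IL-1β against control asked what the cytokine, a driver of inflammation and matrix loss in joints, did to channel transcripts. A gene was called at a Benjamini-Hochberg adjusted p under 0.05 in edgeR's quasi-likelihood test over 15502 genes. Of the 71 tested channel genes 27 rose, 34 fell and 10 were not called. The 61 called genes were 85.9%, beside 78.9% of all tested genes, of which 38.5% rose and 40.4% fell, so the share called lay near that of the whole transcriptome. Changes of at least 2-fold were called for 51 channel genes (71.8%), beside 39.7% of all tested genes. The median log2 change was -0.291 over channel genes and -0.032 over all genes tested, and the median size of the change was 1.679 against 0.754. The IL-1β and control libraries did not overlap for 62 channel genes (87.3%), beside 80% of all tested genes. The tested genes changed in both directions in most families, as the plot of log2 changes by family shows.

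**Figure D1:**
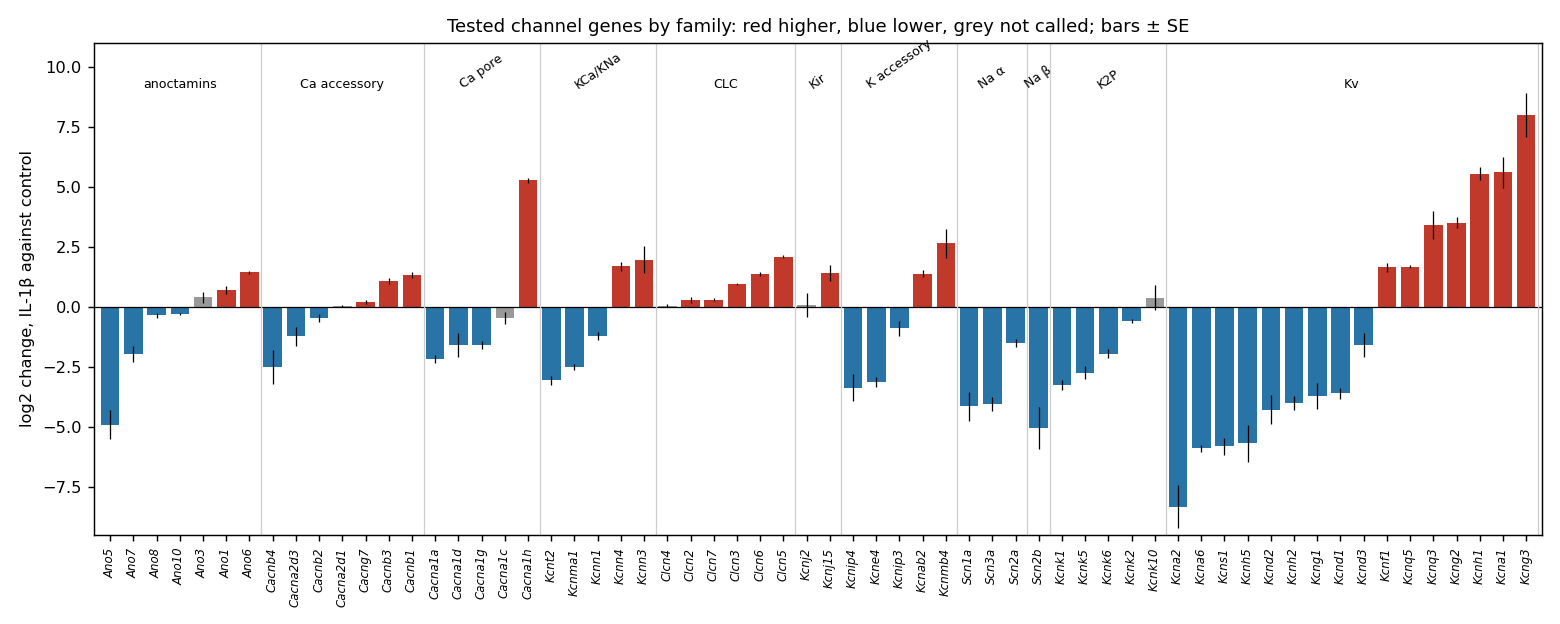
Log2 change between IL-1β and control libraries for 62 of the 71 tested channel genes, grouped by family, with bars ± SE from edgeR (red called higher, blue called lower, grey not called). The sodium channel and tandem-pore-domain families hold only bars below 0 among the called genes, the CLC family only bars above 0, and the voltage-gated potassium family holds bars on both sides. Bars of Kcng3 and Kcna2, which had no count in 1 group, depend on the prior count.

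Voltage-gated potassium pore subunits changed in both directions: 11 of 20 tested rose and 9 fell. Several of the silent subunits, which form no channel alone and alter the gating of other voltage-gated pores, rose. Kcng2 (ENSMUSG00000059852) was at 0.758, 0.587 and 0.863 CPM in control and at 8.87, 9.45 and 6.95 CPM with IL-1β (11.4-fold, log2 3.51 ± 0.21, adjusted p = 5.95e-14). Kcnf1 was at 1.82, 1.67 and 2.13 CPM in control and at 6.08, 5.87 and 5.58 CPM with IL-1β (3.12-fold, adjusted p = 1.09e-08). Kcng3 (ENSMUSG00000045053) had no count in any control library and 88 counts over the IL-1β libraries, at 1.4, 1.03 and 2.73 CPM. With 3 counts assumed for the empty group it was at least 35.8-fold higher (adjusted p = 4.52e-08), a bound that covers counting error only. Other silent subunits went the opposite way.

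Kcns1 (ENSMUSG00000040164), also a silent subunit, was at 10.1, 12.1 and 8.84 CPM in control and at 0, 0.121 and 0.398 CPM with IL-1β (56.2-fold lower, log2 -5.81 ± 0.36, adjusted p = 1.14e-13). Kcng1 was 1.77, 1.08 and 1.27 CPM in control and at most 0.122 CPM in any IL-1β library (13-fold lower, adjusted p = 9.23e-07). Of the 5 silent subunits tested, Kcng2, Kcng3 and Kcnf1 thus rose and Kcns1 and Kcng1 fell. Kcng3 held no control count, and Kcns1 and Kcng1 lay under the filter in the IL-1β libraries. The directions of Kcng3, Kcns1 and Kcng1, and with them the split, are therefore not independent of the filter.

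Other voltage-gated subunits rose too. Kcnh1 (ENSMUSG00000058248), the ether-à-go-go channel, was near the detection limit in control libraries, at 0.101, 0.316 and 0.203 CPM, and at 10.8, 8.6 and 10.9 CPM with IL-1β (46.5-fold, log2 5.54 ± 0.27, adjusted p = 5.67e-16). Kcnq5 (ENSMUSG00000028033), of the family that carries the M-current in neurons, was at 32.9, 32.9 and 35.6 CPM in control and at 104, 110 and 111 CPM with IL-1β (3.2-fold, adjusted p = 2.7e-20). In both genes every IL-1β library was above every control library. Kcnq3, a partner of Kcnq5 in some channels, was low throughout, at 0.0452 to 0.152 CPM in control and at 0.79 to 1.33 CPM with IL-1β (adjusted p = 1.14e-05). Kcna1 held 2 counts over the control libraries and 96 over the IL-1β libraries, a depth-scaled ratio of 58.5 (exact 95% interval 15.8 to 490). The exact intervals given here and below cover counting error only, not the spread between libraries, and are therefore too narrow.

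Falls among the voltage-gated subunits were as deep. Kcna6 (ENSMUSG00000038077), among the more abundant channel genes in control, was at 67.9, 71.4 and 70.3 CPM there and at 1.15, 1.15 and 1.2 CPM with IL-1β (59.5-fold lower, log2 -5.90 ± 0.13, adjusted p = 1.74e-23). A long noncoding gene, Gm26673, shares 39.6% of its exon bases on the opposite strand and held 222 counts over all libraries against 4537 for Kcna6. The Kcna6 counts lie mostly in control libraries. Without the strand setting, its low levels in the IL-1β and SFRP5 libraries may include reads of Gm26673, which was not tested. Kcna2 (ENSMUSG00000040724), another Shaker-type subunit, was at 1.46, 2.08 and 3 CPM in control, and none of the other 6 libraries held a count. With 3 counts assumed for the empty group it was at least 36.6-fold lower with IL-1β (adjusted p = 3.13e-08). Kcnh2 (ENSMUSG00000038319), the pore of the rapid delayed rectifier of the heart, was at 9.7, 8.17 and 8.33 CPM in control and at 0.304, 0.545 and 0.74 CPM with IL-1β (16.2-fold lower, adjusted p = 3.25e-12). Kcnd1, which encodes a transient A-type channel, was at 10.5, 9.75 and 8.18 CPM in control and at 0.608, 0.666 and 1.02 CPM with IL-1β (12.2-fold lower, adjusted p = 2.14e-13), and its relatives Kcnd2 and Kcnd3 fell from control means of 1.668 and 1.033 CPM (19.4-fold and 3.01-fold lower). Kcnd2 and Kcnd3 passed the filter through the control libraries alone, so their direction is not independent of the filter. Kcnh5, a close relative of Kcnh1, moved against it, with 84 counts over control libraries and 1 with IL-1β, a ratio of 68.9 (exact 95% interval 12 to 2750). Kcna2 and Kcnh5 likewise passed the filter through the control libraries alone, so their direction is not independent of the filter.

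**Figure D2:**
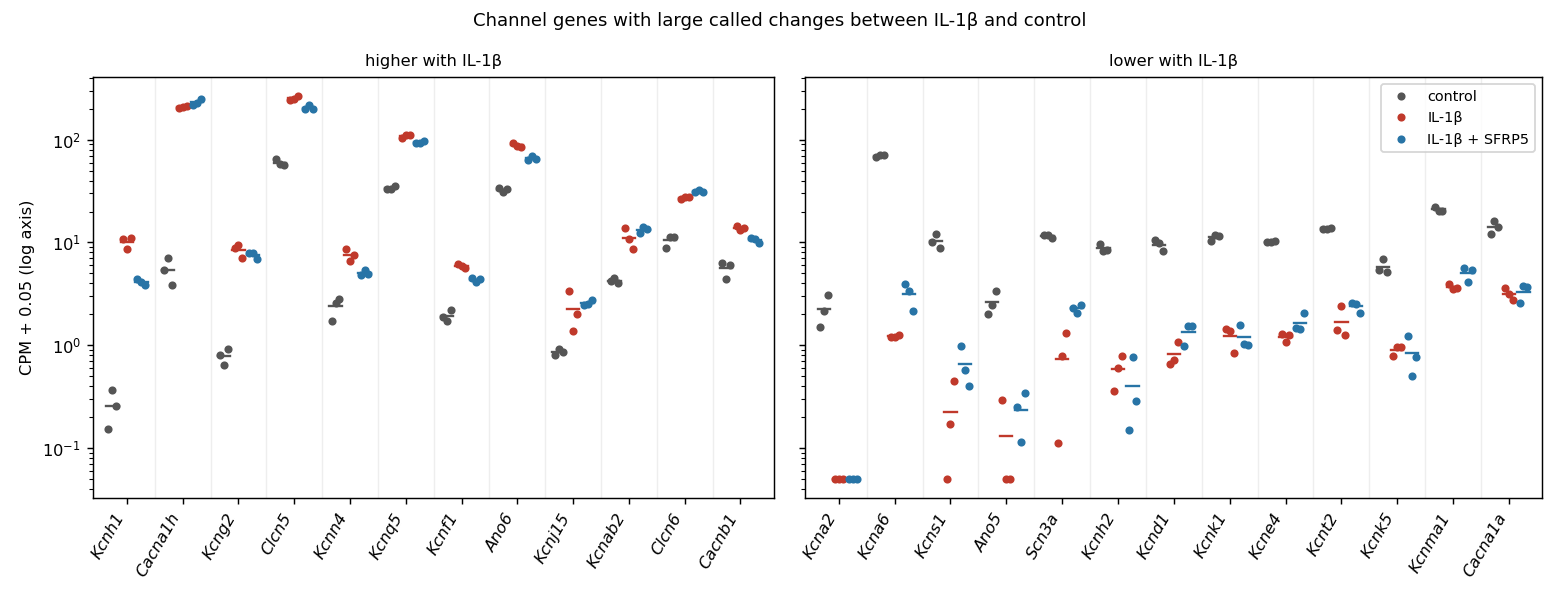
CPM in each library (log axis, 0.05 added so that 0 can be drawn) for channel genes among those with the largest called changes between IL-1β and control, 12 higher on the left and 13 lower on the right; lines mark group means. Control and IL-1β points do not overlap in any gene shown, and the points with SFRP5 lie nearer to IL-1β than to control for most genes.

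To set these transcripts beside their promoters, the 250 bases before each annotated start were read from RefSeq (GRCm38.p6), and 54 of the 71 tested genes had such windows. They were searched on both strands for the NF-κB consensus, the motif of the factor that IL-1β is best known to activate, and for TGANTCA, the letters of the AP-1 site. The 4 windows below are those of Kcng3, Kcnn4 and Kcnh1, which rose, and Kcna6, which fell; capitals mark matches to the NF-κB consensus. Kcng3 lies at chr17:83631896-83632145 (minus strand), Kcnn4 at chr7:24370013-24370262 (plus), Kcnh1 at chr1:192190527-192190776 (plus) and Kcna6 at chr6:126740675-126740924 (minus), and each is written 5′ to 3′ on the gene's strand.
Kcng3: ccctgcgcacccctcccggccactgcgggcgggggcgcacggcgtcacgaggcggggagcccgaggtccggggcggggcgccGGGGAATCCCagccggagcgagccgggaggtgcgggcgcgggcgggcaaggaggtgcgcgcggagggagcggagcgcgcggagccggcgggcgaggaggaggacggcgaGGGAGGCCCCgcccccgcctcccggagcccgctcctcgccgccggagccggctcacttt
Kcnn4: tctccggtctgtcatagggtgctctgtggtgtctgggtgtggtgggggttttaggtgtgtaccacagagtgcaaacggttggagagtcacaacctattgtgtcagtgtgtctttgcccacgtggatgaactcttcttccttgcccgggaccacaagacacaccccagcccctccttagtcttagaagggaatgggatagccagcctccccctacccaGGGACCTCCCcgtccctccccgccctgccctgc
Kcnh1: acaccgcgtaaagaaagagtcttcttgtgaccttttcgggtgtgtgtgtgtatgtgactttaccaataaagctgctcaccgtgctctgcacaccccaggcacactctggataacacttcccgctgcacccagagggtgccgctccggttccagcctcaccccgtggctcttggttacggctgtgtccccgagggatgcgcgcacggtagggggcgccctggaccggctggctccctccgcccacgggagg
Kcna6: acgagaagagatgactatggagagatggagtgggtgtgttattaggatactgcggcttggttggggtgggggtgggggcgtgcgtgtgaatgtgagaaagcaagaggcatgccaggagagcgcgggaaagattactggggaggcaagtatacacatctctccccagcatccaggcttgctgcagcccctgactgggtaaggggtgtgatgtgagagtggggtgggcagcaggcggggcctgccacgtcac
Kcng3 held 2 matches, Kcnn4 held 1, and the windows of Kcnh1 and Kcna6 held none. Over all channel windows, 4 of 28 (14.3%) from genes that rose and 5 of 38 (13.2%) from genes that fell held the NF-κB consensus, beside 7.25% of 32851 windows of all genes. Among windows of genes not called, 1 of 15 (6.67%) held it. The median number of CG pairs was 11, 10 and 8 in windows of genes that rose, fell and were not called, beside 6 in windows of all genes. The part of CG content in these shares was not tested. TGANTCA was in none of the 28 windows from genes that rose and in 3 of the 38 from genes that fell, beside 6.75% of all windows. A match is a description of these letters only, and genes that rose and genes that fell held the NF-κB consensus at much the same share.

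Of 5 tested calcium- or sodium-activated potassium channels, 2 rose and 3 fell. Kcnn4 (ENSMUSG00000054342), the intermediate-conductance calcium-activated channel of non-excitable cells, was at 1.67, 2.53 and 2.79 CPM in control and at 8.51, 6.6 and 7.51 CPM with IL-1β (3.22-fold, log2 1.69 ± 0.18, adjusted p = 7.22e-09). Kcnma1 (ENSMUSG00000063142), the large-conductance channel gated by both voltage and calcium, went the other way. It was at 22.3, 20.2 and 20.2 CPM in control and at 3.89, 3.45 and 3.59 CPM with IL-1β (5.73-fold lower, log2 -2.52 ± 0.13, adjusted p = 1.63e-15). Kcnt2, a sodium-activated channel, was at 13.6, 13.5 and 13.9 CPM in control and at 1.34, 2.36 and 1.2 CPM with IL-1β (8.36-fold lower, adjusted p = 5.91e-14). The small-conductance channels split, with Kcnn1 2.34-fold lower from 8.397 ± 0.23 CPM (adjusted p = 1.76e-07) and Kcnn3 3.89-fold higher from 0.2551 ± 0.222 CPM (adjusted p = 0.00319). Kcnn3 passed the filter through the IL-1β libraries alone, so its direction, and with it the split, is not independent of the filter.

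The tandem-pore-domain channels, which carry background potassium leak, were mostly lower among those tested. Of 14 genes 5 were tested, and 4 of these fell and none rose, beside 40.4% of all tested genes that fell. The untested Kcnk7, given among the low genes, went from 2 counts over control libraries to 28 with IL-1β. Kcnk1 (ENSMUSG00000033998) was at 10.2, 11.7 and 11.5 CPM in control and at 1.4, 1.33 and 0.797 CPM with IL-1β (9.47-fold lower, log2 -3.24 ± 0.20, adjusted p = 1.63e-13). Kcnk5, an acid-sensitive channel linked to cell volume, was at 5.3, 6.86 and 5.13 CPM in control and at 0.729, 0.908 and 0.911 CPM with IL-1β (6.75-fold lower, adjusted p = 9.81e-10). Kcnk6 was 3.88-fold lower (adjusted p = 3.8e-10). Kcnk2 (ENSMUSG00000037624), a stretch-activated channel, was the most abundant of the family and changed least among those called, from 36.5, 42.8 and 40.6 CPM to 28.6, 25.6 and 26.1 CPM (1.5-fold lower, adjusted p = 6.46e-08). Kcnk10, its low-level relative, was not called. Inward rectifiers were scarce, with 2 of 15 tested. Kcnj15 rose from 0.758, 0.858 and 0.812 CPM to 3.28, 1.33 and 1.94 CPM (2.67-fold, adjusted p = 0.000333), and Kcnj2 was not called at 0.4624 and 0.4918 CPM.

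Of 6 tested accessory subunits of potassium channels, 2 rose and 3 fell. Kcnab2, a cytosolic β subunit of Shaker-type channels, was at 4.19, 4.42 and 4.01 CPM in control and at 13.8, 10.7 and 8.65 CPM with IL-1β (2.61-fold, adjusted p = 7.86e-09). Kcne4, a single-span partner that inhibits several voltage-gated channels, was at 9.95, 10.1 and 10.2 CPM in control and at 1.22, 1.03 and 1.2 CPM with IL-1β (8.73-fold lower, adjusted p = 8.67e-14). Kcnip4 and Kcnip3, calcium-binding partners of the Kcnd channels, were called lower at 10.3-fold and 1.86-fold (adjusted p = 5.89e-06 and 0.0149). Since Kcnip4 passed the filter through the control libraries alone, its direction is not independent of the filter. The Kcnip3 call was lost without IL-1β replicate 1 or 3 (adjusted p = 0.0529 to 0.0637) and with DESeq2 (adjusted p = 0.0559). Kcnmb4, a β subunit of the Kcnma1 channel, rose from at most 0.152 CPM to 0.79, 0.908 and 0.569 CPM (adjusted p = 0.000326).

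Calcium channel pore subunits were dominated by 1 gene after IL-1β. Cacna1h (ENSMUSG00000024112), which encodes a low-voltage-activated T-type channel, was at 5.3, 7 and 3.76 CPM in control and at 205, 209 and 211 CPM with IL-1β (38.5-fold, log2 5.27 ± 0.10, adjusted p = 3.41e-25). None of the other 5 tested pore subunits rose. Cacna1g (ENSMUSG00000020866), the second T-type gene tested, was at 6.31, 7.95 and 6.65 CPM in control and at 2.31, 2.42 and 2.28 CPM with IL-1β (2.99-fold lower, adjusted p = 4.8e-09). Cacna1a, the P/Q-type pore, was at 12.1, 16.1 and 14.2 CPM in control and at 3.58, 3.09 and 2.68 CPM with IL-1β (4.55-fold lower, adjusted p = 4.47e-12). The T-type genes thus moved in opposite directions.

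Cacna1d, an L-type pore, was called 3.05-fold lower (adjusted p = 0.00535), from 1.46, 1.22 and 1.32 CPM to 0.122, 0.121 and 1.02 CPM. Without IL-1β replicate 3, the high library, its log2 change went from -1.61 to -3.36. Cacna1d shares exon bases with Chdh on the opposite strand, which held 908 counts against its 168, and the strand setting of the counting was not given, so its reads cannot be told from those of Chdh there. Cacna1c, the other L-type pore tested, was not called at 3.034 ± 0.376 and 2.164 ± 0.689 CPM (log2 -0.48 ± 0.24, adjusted p = 0.0743), but was called lower with upper-quartile scaling (adjusted p = 0.0212).

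Of 8 tested calcium channel accessory subunits, 3 rose and 3 fell. Cacnb1 and Cacnb3, β subunits that bring the pore to the membrane, rose 2.49-fold and 2.09-fold, from means of 5.562 and 5.895 CPM to 13.79 and 12.3 CPM (adjusted p = 8.02e-10 and 1.6e-08). Cacnb2 and Cacna2d3 were called lower at 1.39-fold and 2.33-fold (adjusted p = 0.0169 and 0.00731). Only the control libraries took Cacna2d3 over the filter, so its direction is not independent of the filter. The Cacnb2 call was lost without control replicate 1, IL-1β replicate 1 or IL-1β replicate 2 (adjusted p = 0.0625 to 0.106) and with DESeq2 (0.0639), and that of Cacna2d3 without control replicate 1 (adjusted p = 0.0844). Cacnb4, also called lower, held 0.354, 0.587 and 0.863 CPM in control and at 0.182, 0.121 and 0 CPM with IL-1β. The most abundant members barely moved: Cacng7 was called 1.14-fold higher (adjusted p = 0.0219), a call lost without control replicate 3 (0.129) and with upper-quartile scaling (0.601). Cacna2d1, the α2δ subunit that binds gabapentin, was not called, at 51.9, 49.1 and 47.2 CPM in control and at 51.3, 49.8 and 51.3 CPM with IL-1β (log2 0.04 ± 0.05, adjusted p = 0.492).

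Of the 10 sodium channel α subunits 3 were tested, and these fell with IL-1β, beside 40.4% of all tested genes. Scn3a (ENSMUSG00000057182), an α subunit best known from developing brain, was at 11.7, 11.8 and 11 CPM in control and at 0.0608, 0.727 and 1.25 CPM with IL-1β (16.5-fold lower, log2 -4.04 ± 0.28, adjusted p = 1.19e-12). Scn2a, another brain α subunit, was at 10.5, 10.9 and 8.12 CPM in control and at 3.16, 4.12 and 3.07 CPM with IL-1β (2.86-fold lower, adjusted p = 1.5e-08). In both genes all control libraries lay above all IL-1β libraries. Scn1a fell from 2.12, 1.44 and 0.965 CPM to at most 0.122 CPM (17.6-fold lower, adjusted p = 8.46e-07), and Scn2b from 54 counts over control libraries to 1 (ratio 44.3, exact 95% interval 7.62 to 1780). Scn1a and Scn2b were tested through their control libraries alone, so their direction is not independent of the filter. The untested Scn11a and Scn8a, given among the low genes, were not lower with IL-1β. Of the neuron markers, Syt1 went from 156 counts over control libraries to none with IL-1β and Prph from 125 to 4, while Tubb3 went from 225 to 451 and Nefl from none to 146. Their part in the sodium channel result was not tested.

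The CLC family ran the other way: 5 of 6 tested genes rose and none fell, or 4 of 6 with upper-quartile scaling. Of all tested genes 38.5% rose. Clcn5 (ENSMUSG00000004317), an endosomal chloride-proton exchanger, was at 64.7, 58.2 and 56.1 CPM in control and at 243, 251 and 265 CPM with IL-1β (4.24-fold, log2 2.09 ± 0.05, adjusted p = 6.01e-22). Clcn6, of late endosomes, was at 8.84, 11.2 and 11.2 CPM in control and at 26.4, 27.4 and 27.7 CPM with IL-1β (2.6-fold, adjusted p = 1.38e-13). Clcn3, another endosomal exchanger, was at 73.3, 66.9 and 70.4 CPM in control and at 137, 130 and 138 CPM with IL-1β (1.93-fold, adjusted p = 1.27e-15). In these 3 genes the groups were well apart. Clcn7 rose by 1.23-fold (adjusted p = 1.11e-05). Clcn2, a plasma membrane channel, was called 1.22-fold higher (adjusted p = 0.0324), which was lost without control replicate 3 or IL-1β replicate 1 (adjusted p = 0.118 to 0.159), with upper-quartile scaling (0.284) and with DESeq2 (0.0705). Its exons overlap 2 other genes on the opposite strand. Clcn4 was not called, at 71.2 ± 2.04 and 73.66 ± 4.03 CPM.

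Of 8 tested anoctamins 2 rose and 4 fell. Ano6 (ENSMUSG00000064210), a calcium-activated lipid scramblase, was at 33.8, 30.9 and 32.9 CPM in control and at 91.9, 86.3 and 85.8 CPM with IL-1β (2.7-fold, log2 1.44 ± 0.06, adjusted p = 3.4e-18). Ano1, the calcium-activated chloride channel, rose 1.61-fold from 3.7 ± 0.507 CPM (adjusted p = 0.000441). Ano5, an intracellular member mutated in muscle and jaw bone disease, was at 1.97, 2.39 and 3.35 CPM in control and at 0.243, 0 and 0 CPM with IL-1β (29.9-fold lower, adjusted p = 4.92e-08). Its IL-1β counts came from 1 library, and without IL-1β replicate 1 the fitted log2 change went from -4.90 to -8.56. Ano7 was 3.9-fold lower (adjusted p = 9.3e-06), and Ano10, the most abundant anoctamin in control by length, was 1.22-fold lower (adjusted p = 1.87e-05). Both Ano5 and Ano7 passed the filter through the control libraries alone, so their direction is not independent of the filter. Ano8 was called 1.28-fold lower, with a log2 change of -0.36 that went to -0.24 without IL-1β replicate 2.

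Transcript levels were also summed over families and divided by gene length, and the sums of 4 families are given, chosen after their values were seen; that of the sodium β subunits is not reported here. Voltage-gated potassium pore subunits summed to 29.2 ± 0.248 CPM per kilobase in control and 55.1 ± 1.01 with IL-1β, and calcium pore subunits to 2.87 ± 0.362 and 22.2 ± 0.32 CPM per kilobase. CLC genes summed to 31.3 ± 0.906 and 57.9 ± 0.527 CPM per kilobase. Tandem-pore-domain channels summed to 16.9 ± 1 CPM per kilobase in control and 7.18 ± 0.678 with IL-1β. These sums are dominated by the few abundant members and carry no test.

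**Figure D3:**
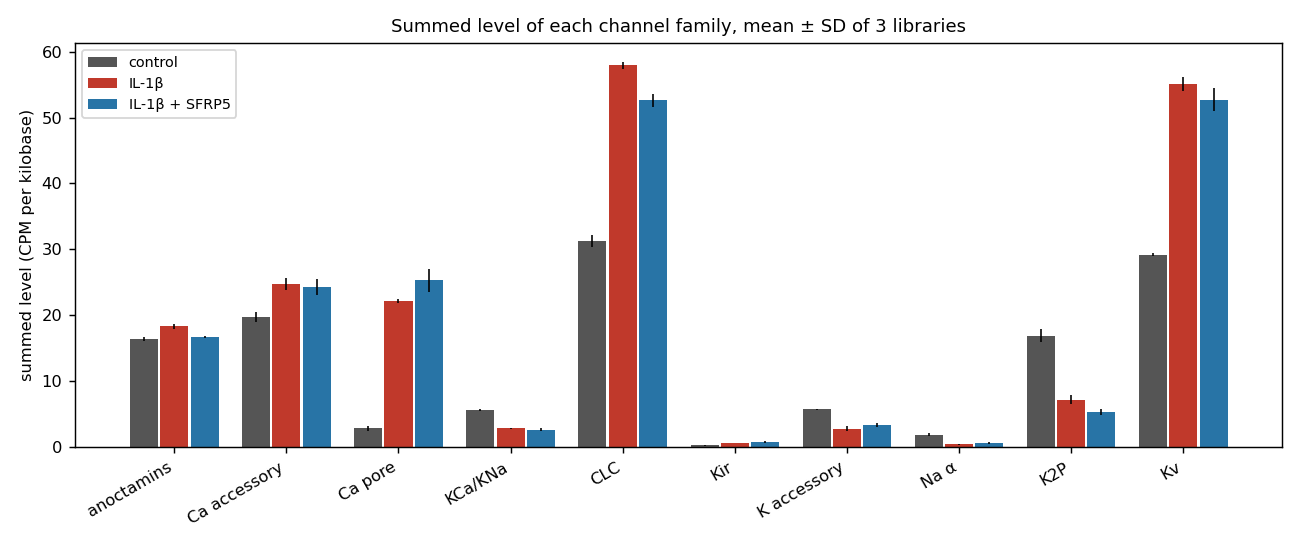
Summed level of 10 channel families in CPM per kilobase of gene length, mean ± SD of 3 libraries per group, with untested genes included and sodium β subunits not drawn. The CLC and voltage-gated potassium sums are the tallest with IL-1β, at 57.9 and 55.1, the calcium pore sum is 22.2 against 2.87 in control, and the tandem-pore-domain sum is 7.18 against 16.9.

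The libraries with SFRP5 added were set against those of IL-1β alone to ask what the recombinant protein changed in stimulated cells. Of the 71 tested channel genes 12 rose, 12 fell and 47 were not called. The 24 called genes were 33.8%, beside 31.3% of all tested genes, of which 15.6% rose and 15.7% fell. Changes of at least 2-fold were called for 9 channel genes (12.7%), beside 4.12% of all tested genes. The number that rose was 7 with DESeq2 and 7 without IL-1β replicate 2. The libraries of both groups were apart for 29 channel genes (40.8%), the same share as among all tested genes (40.8%), and the median log2 changes were 0.027 and 0.013. For 11 of the 24 genes the call held under every alternative run. Among these, Cacna1g, Scn3a, Kcna6 and Cacna1c rose, and Kcnh1, Kcnk2, Ano6, Clcn5 and Kcnq5 fell.

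Cacna1g, the T-type gene that IL-1β lowered, was at 2.31, 2.42 and 2.28 CPM with IL-1β and at 7.69, 8.91 and 8.67 CPM with SFRP5 added (3.59-fold, log2 1.84 ± 0.17, adjusted p = 2.7e-09). Its SFRP5 libraries overlapped the control range of 6.31 to 7.95 CPM, and it was not called between these groups (adjusted p = 0.086). Cacna1c was at 1.4, 2.36 and 2.73 CPM with IL-1β and at 3.9, 3.77 and 5.25 CPM with SFRP5 (1.98-fold, adjusted p = 0.00209). Cacna1h did not pass, at 205, 209 and 211 CPM with IL-1β and 217, 229 and 249 CPM with SFRP5 (log2 0.15 ± 0.06, adjusted p = 0.077). Cacna1d and Cacnb4 were called higher (2.75-fold and 4.42-fold, adjusted p = 0.0331 and 0.0335), but both calls rested on few counts. That of Cacna1d was lost without IL-1β replicate 1 or 2 or SFRP5 replicate 1 (adjusted p = 0.157 to 0.161), and its log2 change went from 1.46 to 3.24 without IL-1β replicate 3. That of Cacnb4 was lost without IL-1β replicate 2 or 3 or SFRP5 replicate 2 (0.0698 to 0.176), and a noncoding gene on the opposite strand, A430018G15Rik, overlaps 16% of its exon bases.

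All 3 tested sodium α subunits were called higher with SFRP5, from the low levels that IL-1β left. Scn3a was at 0.0608, 0.727 and 1.25 CPM with IL-1β and 2.27, 2.02 and 2.42 CPM with SFRP5 (3.22-fold, adjusted p = 0.000708). It stayed below every control library, at 11 to 11.8 CPM. The calls of Scn2a (1.42-fold, adjusted p = 0.0436) and Scn1a (4.27-fold, adjusted p = 0.0426) were less secure. That of Scn2a was lost on leaving out control replicate 1 or replicate 1 or 3 of either IL-1β group (adjusted p = 0.0517 to 0.226). That of Scn1a was lost on leaving out control replicate 2 or any of the 6 libraries compared (0.0543 to 0.161). Scn2b, with at most 0.177 CPM in these libraries, was not called.

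Among potassium channels, Kcna6 was at 1.15, 1.15 and 1.2 CPM with IL-1β and at 3.9, 3.32 and 2.12 CPM with SFRP5 (2.69-fold, log2 1.43 ± 0.22, adjusted p = 1.11e-05), against 67.9 to 71.4 CPM in control. Kcnh1, which IL-1β raised, was at 10.8, 8.6 and 10.9 CPM with IL-1β and at 4.39, 4.1 and 3.78 CPM with SFRP5 (2.46-fold lower, log2 -1.30 ± 0.17, adjusted p = 8.32e-07). Kcnk2 was at 28.6, 25.6 and 26.1 CPM with IL-1β and 19.8, 18.1 and 19.7 CPM with SFRP5 (1.39-fold lower, adjusted p = 4.04e-05). Kcnk2 was thus lower with IL-1β than in control and lower again with SFRP5. Kcnq5 fell by 1.15-fold (adjusted p = 0.0021).

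Kcnn4 was at 8.51, 6.6 and 7.51 CPM with IL-1β and 4.73, 5.33 and 4.9 CPM with SFRP5 (1.51-fold lower, adjusted p = 0.00806), a call lost without IL-1β replicate 1 (0.0503). Kcnma1 was called 1.39-fold higher (adjusted p = 0.0218), which was lost without IL-1β replicate 2 or 3 or SFRP5 replicate 1 or 3 (0.0518 to 0.121). Kcns1 was called 3.42-fold higher (adjusted p = 0.0292), which was lost without IL-1β replicate 1 or 2 or SFRP5 replicate 1 (0.0924 to 0.215), and its log2 change went from 1.77 to 3.23 without IL-1β replicate 3. Kcnf1 was called 1.36-fold lower (adjusted p = 0.0437), which was lost on leaving out any of the 6 libraries compared (0.0636 to 0.113). Kcng2, which IL-1β raised, was not called, at 8.87, 9.45 and 6.95 CPM with IL-1β and at 7.79, 7.81 and 6.9 CPM with SFRP5 (log2 -0.16 ± 0.15, adjusted p = 0.451), and its groups overlapped.

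**Figure D4:**
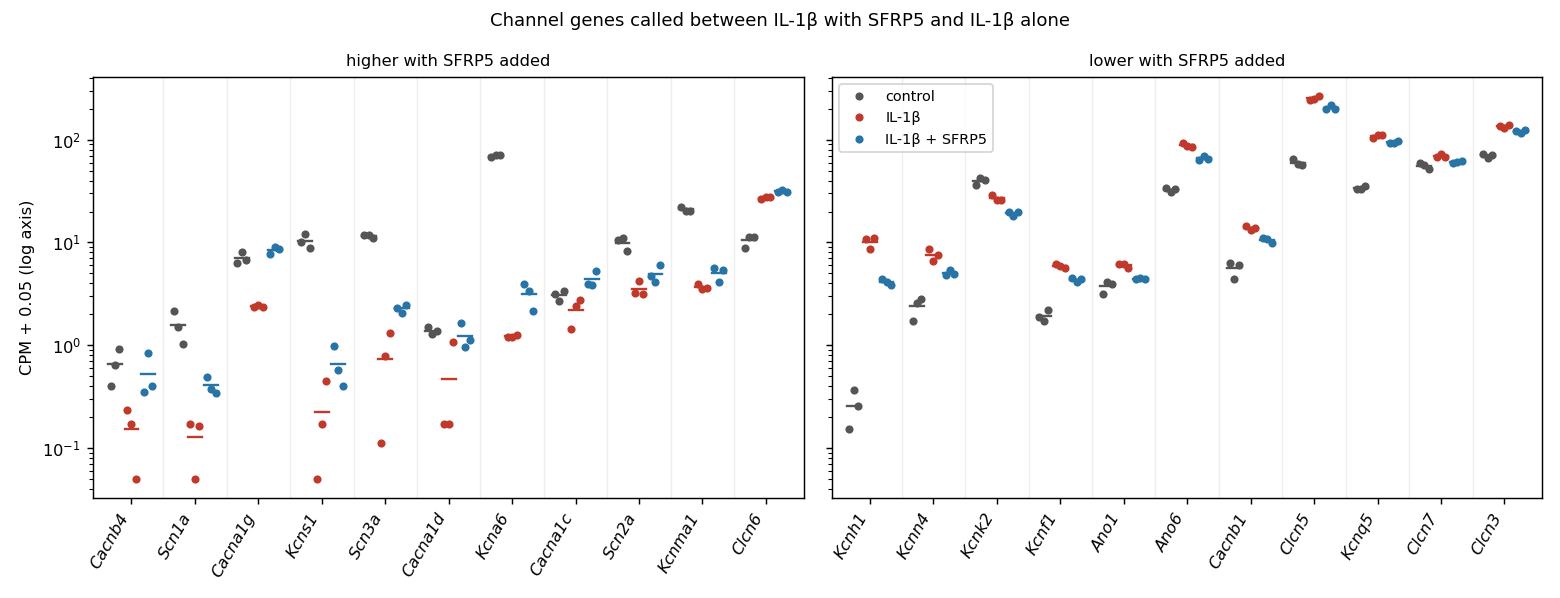
CPM in each library (log axis, 0.05 added so that 0 can be drawn) for 22 of the 24 channel genes called between the SFRP5 and IL-1β libraries, 11 higher on the left and 11 lower on the right; lines mark group means. For Cacna1g the SFRP5 points reach the control points, while for Kcna6 and Scn3a they stay far below them.

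Chloride channels and anoctamins moved by small steps with SFRP5. Clcn5 was at 243, 251 and 265 CPM with IL-1β and at 200, 217 and 200 CPM with SFRP5 (1.23-fold lower, log2 -0.30 ± 0.05, adjusted p = 3.52e-05). Ano6 was at 91.9, 86.3 and 85.8 CPM with IL-1β and 63.2, 69.9 and 65.4 CPM with SFRP5 (1.33-fold lower, adjusted p = 6.19e-07). In both genes every SFRP5 library lay below every IL-1β library and above every control library. Clcn3 and Clcn7 were called 1.11-fold and 1.14-fold lower (adjusted p = 0.0112 and 0.00706), which was lost without SFRP5 replicate 2 (0.0547) and without IL-1β replicate 2 (0.0513). Clcn6 was called 1.16-fold higher (adjusted p = 0.0408), which was lost on leaving out any of the 6 libraries compared (0.0585 to 0.118). Ano1 was called 1.36-fold lower (adjusted p = 0.0384), which was lost without IL-1β replicate 1 or 2 or any SFRP5 library (0.0669 to 0.1), and Cacnb1 1.3-fold lower (adjusted p = 0.016), which was lost without IL-1β replicate 1 or SFRP5 replicate 3 (0.0538 to 0.0648).

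IL-1β with SFRP5 was also compared with control, with the control libraries shared with the first comparison. Of the 71 tested channel genes 27 rose, 30 fell and 14 were not called; the 57 called genes were 80.3%, beside 76.3% of all tested genes, of which 37.3% rose and 39% fell. Changes of at least 2-fold were called for 47 genes (66.2%), beside 36.2%, and 59 genes (83.1%) had groups apart, beside 78.2%. Cacna1h, at 217, 229 and 249 CPM against 5.3, 7 and 3.76 CPM in control, was 42.8-fold higher (adjusted p = 2.14e-25). Kcnh1 was 18.9-fold higher (adjusted p = 2.81e-12). Kcng3 was at least 30.1-fold higher, with 77 counts over the group, and Kcna2 at least 38.1-fold lower. Kcna6, Kcnh2, Kcnk1 and Scn3a were 22.2-fold, 26.3-fold, 9.44-fold and 5.12-fold lower, with adjusted p of 1.6e-22, 7.86e-13, 1.6e-13 and 7.3e-10.

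A few genes were called here that were not called between IL-1β alone and control. In that comparison Cacna1c had a log2 change of -0.477, Ano3 of 0.402 and Clcn4 of 0.049. Ano3 and Clcn4 were also not called between SFRP5 and IL-1β alone (adjusted p = 0.194 and 0.112). Cacna1c was called 1.42-fold higher than control (adjusted p = 0.0388), which was lost without control replicate 1 or 2 or SFRP5 replicate 3 (adjusted p = 0.0607 to 0.199), with upper-quartile scaling (0.123) and with DESeq2 (0.092). Ano3 rose 1.71-fold over control (adjusted p = 0.0021), at 3.5, 3.58 and 4.43 CPM against 1.82, 2.71 and 2.13 CPM. Clcn4 was called 1.12-fold higher (adjusted p = 0.00792), which was lost without SFRP5 replicate 3 (log2 from 0.17 to 0.11, adjusted p = 0.0758) and with upper-quartile scaling (0.588).

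Pumps, exchangers, stores and other partners of these channels, a list of 65 genes of which 46 were tested, also changed in both directions. With IL-1β 16 rose, 26 fell and 4 were not called (91.3% called, beside 78.9% of all tested genes), and the median log2 change was -0.445, beside -0.032 over all genes tested. Atp2b4, a calcium pump of the plasma membrane, was at 12, 13.2 and 10.2 CPM in control and at 111, 110 and 97.3 CPM with IL-1β (8.93-fold, adjusted p = 1.51e-22), and 62.6, 61.7 and 69.6 CPM with SFRP5 added. Gem, a small GTPase that inhibits voltage-gated calcium channels, was at 2.32, 2.21 and 1.93 CPM in control, at 22, 21.9 and 20.6 CPM with IL-1β and at 10.2, 9.95 and 8.85 CPM with SFRP5 (adjusted p = 3.22e-18 for IL-1β against control and 1.74e-09 for SFRP5 against IL-1β). Atp2b4 and Gem were thus called higher with IL-1β and lower with SFRP5 added. Atp2b1, another calcium pump of the plasma membrane, went the other way with IL-1β. It fell from a mean of 231.7 CPM in control to 121.9 CPM (1.9-fold lower, adjusted p = 1.8e-16). Dpp6, a partner of Kcnd channels, rose from at most 0.102 CPM to 1.22, 1.63 and 1.37 CPM (adjusted p = 1.29e-07). Fxyd6, Fxyd3 and Fxyd1, small regulators of the sodium pump, were 15-fold, 15.9-fold and 11.8-fold lower with IL-1β, with adjusted p of 6.36e-19, 3.25e-13 and 3.03e-15. Fxyd5, of the same family, went the other way, from a mean of 25 CPM in control to 93.47 CPM with IL-1β (3.74-fold higher, adjusted p = 4.69e-19).

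With SFRP5 added, 11 of the 46 partner genes rose, 15 fell and 20 were not called (56.5% called, beside 31.3% of all tested genes, and a median log2 change of 0.032 beside 0.013). Slc8a1, the sodium-calcium exchanger, was at 5.04, 4.18 and 5.29 CPM with IL-1β and at 2.22, 1.89 and 1.77 CPM with SFRP5 (2.45-fold lower, adjusted p = 1.15e-05). Atp1b1, a β subunit of the sodium pump, was at 8.38, 8.9 and 8.94 CPM and at 3.94, 4.16 and 2.95 CPM (2.37-fold lower, adjusted p = 2.95e-07). Nfatc4, a calcium-regulated transcription factor, rose 1.78-fold (adjusted p = 0.00037) from 2.79, 2.48 and 3.02 CPM to 5.67, 4.88 and 4.13 CPM. Fxyd3 was called 1.96-fold higher (adjusted p = 0.0464), which was lost without SFRP5 replicate 2 or any of the control or IL-1β libraries (0.0512 to 0.324). Against control, 14 partner genes rose, 29 fell and 3 were not called with IL-1β and SFRP5 (93.5% called, beside 76.3%, and a median log2 change of -0.595, beside -0.023 over all genes tested). Orai2, a store-operated calcium channel, was 5.48-fold higher and Atp2a3, a calcium pump of the endoplasmic reticulum, 6.99-fold lower than control (adjusted p = 1.07e-22 and 1.05e-07). Its relatives moved otherwise: Orai1 and Orai3 were 3.07-fold and 1.71-fold lower than control (adjusted p = 3.66e-12 and 9.03e-07). Atp2a3 was at a mean of 2.698 CPM in control. Atp2a2, a more abundant pump of that kind at 369.1 CPM, was 1.6-fold lower (adjusted p = 2.26e-13).

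The 81 channel genes that were not tested each held at most 84 counts over the 9 libraries. The 25 with no count at all included Kcna3, Kcnb2, Scn10a and Cacna1f, and 5 of the 15 inward rectifiers. Some low genes still differed between groups in count. Kcnk7 held 2 counts over control libraries and 28 with IL-1β, a ratio of 17.1 (exact 95% interval 4.31 to 148), and Scn11a 0, 14 and 2 counts in control, IL-1β and SFRP5 libraries, at least 5.69-fold higher with IL-1β than in control. Kcne1l held 20 counts in control and none in the other groups, at least 5.47-fold lower with IL-1β. Scn8a held 25 counts in control, 30 with IL-1β and 9 with SFRP5 added, and each SFRP5 library (0.13 to 0.236 CPM) lay below each library of the other groups. Scn9a held 5 counts in control and none elsewhere. These genes were picked after their counts were seen and carry no test.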

How the data were processed

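RNA was sequenced from 9 libraries, 3 per group. Per the labels' protocols, total RNA went into NEBNext Ultra II Directional libraries, and paired-end reads passed through fastp, STAR (mouse mm10) and RSEM. Versions, annotation release and strand setting are not given in the sources used here. All values are gene counts as deposited by the authors, whole numbers with no scaling between libraries; how RSEM's estimates were made whole is not given. Each column was assigned by its letter and final digit; the SFRP5 column names hold further digits of unstated meaning.

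The counts were tested with edgeR 4.0.16 (R 4.3.3): TMM factors, filterByExpr by group (minimum count 10), 1 quasi-likelihood fit over 9 libraries and Benjamini-Hochberg adjustment over 15502 genes; the common biological coefficient of variation was 4.97%. Every adjusted p is from this test unless another tool is named. The script was tested on simulated counts. The SE comes from the change and its F statistic and is too small where 1 group is near 0. Within a group, pairs of libraries differed by a chi-square of 2.2 to 4.81 per gene, more than sampling noise, so none was counted as a duplicate. The genes and lists were chosen with earlier results of these data known. Genes were named by rule: in each comparison the 14 of largest called change per direction with a mean of at least 2 CPM in the higher group, the 12 of highest level per length in control and in IL-1β libraries, those called at 2-fold or more with SFRP5, those at 0 in 1 group with at least 30 counts in another, and up to 6 genes of each partner list. Others were named after their values were seen, to complete their families. Some genes that the rule names are not reported here, and the figures draw only genes named in the text. Alternatives were other scaling factors, no filter, DESeq2 1.42.0, fewer libraries in the fit, a replicate block, and each library left out. Exon overlaps were taken from GENCODE M21, in which 7 tested members share exon bases with a gene holding over 10 percent of their own counts, always on the opposite strand (Ano8, Cacna1d, Cacnb4, Clcn2, Kcnab3, Kcnip4 and Kcnmb4); without the strand setting, reads of such pairs cannot be told apart.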

Additional observations from a re-analysis of the deposited data

How the results depend on the processing

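Over 15 alternatives, of which 9 left out a library, the channel genes called with IL-1β against control numbered 25 to 30 higher and 32 to 37 lower, and 54 of the 61 called genes kept their call in each alternative that could test them. With SFRP5 against IL-1β alone the number higher was 12, but 7 with DESeq2 and 7 to 13 on leaving out a library, the number lower was 9 to 13, and 11 of 24 called genes kept their call throughout; the cause was not tested. With SFRP5 against control the counts were 23 to 30 higher and 28 to 35 lower, and 51 of 57 genes kept their call. No called channel gene changed sign. Upper-quartile factors moved the median log2 change of all tested genes from -0.032 to -0.18 with IL-1β and from -0.023 to -0.157 with SFRP5 against control, and the uncalled changes of Clcn4 and Cacna2d1 with IL-1β then had the opposite sign (log2 -0.098 and -0.107). Libraries of the same number did not deviate together (r = -0.036 to 0.04, against -0.039 to 0.055 for other pairs). These values cannot settle whether such libraries share an animal, culture or batch, which the labels do not give. A fit with the replicate block gave 27 higher and 34 lower channel genes for IL-1β against control, 12 and 10 for SFRP5 against IL-1β alone, and 27 and 30 for SFRP5 against control; Ano1 and Kcnf1 (adjusted p = 0.0522 and 0.0612) and the partner gene Fxyd3 (0.0549) lost their calls with SFRP5. The alternatives for the partner lists and Kcnq1ot1 were chosen after seeing the data. Depth limits genes under about 10 counts a library, where 1 library can decide a value.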

Other observations

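Chloride, nonselective and proton-gated channels of other families, a list of 35 genes of which 21 were tested, held 7 genes that rose and 9 that fell with IL-1β (76.2% called, beside 78.9% of all tested genes, and a median log2 change of -0.077 beside -0.032). Lrrc8d, a subunit of the volume-regulated anion channel, was at 23.1, 24.6 and 24.4 CPM in control and at 338, 324 and 310 CPM with IL-1β (13.5-fold, adjusted p = 8.43e-28), while Lrrc8c, another subunit of that channel, was at 79.9, 79.4 and 82.1 CPM in control and at 27.1, 27 and 21.6 CPM with IL-1β (3.19-fold lower, adjusted p = 4.11e-17). The subunits thus moved in opposite directions. Hvcn1, the voltage-gated proton channel, was at 2.73, 2.66 and 4.01 CPM in control and at 14.3, 13.1 and 11.9 CPM with IL-1β (4.18-fold, adjusted p = 3.49e-11). Nalcn, the sodium leak channel, was at 1.87, 1.94 and 2.59 CPM in control and at 0 in every IL-1β library (adjusted p = 8.05e-08). Scnn1a, a subunit of the epithelial sodium channel, and Ttyh3 were 4.03-fold and 3.63-fold lower with IL-1β (adjusted p = 5.04e-07 and 2.03e-16).

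With SFRP5 added, 3 of these 21 genes rose, 4 fell and 14 were not called against IL-1β alone (33.3% called, beside 31.3% of all tested genes). Hvcn1 was at 4.88, 3.97 and 3.07 CPM (3.26-fold lower, adjusted p = 1.13e-08), with libraries that overlapped the control range, and Lrrc8d was at 195, 199 and 189 CPM (1.67-fold lower, adjusted p = 5.08e-13). Tpcn1 and Tpcn2, cation channels of endosomes and lysosomes, and Ttyh3 rose 1.41-fold, 1.36-fold and 1.31-fold (adjusted p = 1.75e-07, 0.00428 and 0.00296). Clic4, an abundant intracellular channel protein, was at 861, 846 and 791 CPM with IL-1β and at 593, 611 and 581 CPM with SFRP5 (1.4-fold lower, adjusted p = 1.02e-10). Against control, 6 of the 21 rose and 8 fell with SFRP5 (66.7% called, beside 76.3%), among those that rose Tmem38b, an intracellular cation channel, at 2.73-fold higher (adjusted p = 2.29e-14).

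The name patterns also matched 5 long noncoding rows, which were left out of the channel genes. Of these Kcnq1ot1 alone was tested, at 27.3, 26 and 20.3 CPM in control, at 25.1, 24.8 and 31 CPM with IL-1β and at 21.2, 25.4 and 17.1 CPM with SFRP5. It was called 1.28-fold lower with SFRP5 than with IL-1β alone (log2 -0.352, adjusted p = 0.0243), although these groups overlap, and the call was lost without IL-1β replicate 3 or SFRP5 replicate 1 or 3 (adjusted p = 0.061 to 0.169). It was not called with IL-1β against control or with SFRP5 against control (adjusted p = 0.274 and 0.0967).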
